A study of Homo sapiens with 12 samples.

Results

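Accessible chromatin was examined at 10 genes that act in pericellular proteolysis. They were the matrix metalloproteinases MMP1, MMP2, MMP3, MMP9, MMP10, MMP13 and MMP14, the urokinase plasminogen activator PLAU, its receptor PLAUR and the metalloproteinase inhibitor TIMP3. The members were chosen by name, and for each the gene body and 20 kb on both sides were searched for accessible regions. A region was a run of adjoining 100-bp bins in the table of a cell line. The windows held 42 of the 79177 regions of the DU-145 table and 24 of the 46298 regions of the BT-549 table. In DU-145 cells, 9 of the 10 genes had at least 1 region, and in BT-549 cells 5 did, namely PLAU, PLAUR, MMP2, MMP9 and MMP14. TIMP3 had none in either table.

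Plasmin is cleaved from plasminogen by urokinase, which is held at the cell surface by its receptor. Plasmin and the secreted metalloproteinases degrade matrix proteins and cleave one another's proenzymes, and MMP14 is anchored in the membrane, where it activates pro-MMP2. Many of these genes carry AP-1 elements in their promoters and are known for induction by growth factors and phorbol esters, and they are often studied in the invasion of carcinoma cells.

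The libraries came from DU-145 cells, a castration-resistant prostate cancer (CRPC) line, and BT-549 cells, a triple-negative breast cancer (TNBC) line. Both lines carried a doxycycline-inducible hairpin against MUC1 (tet-MUC1shRNA) and were grown for 7 days with vehicle (0.1% DMSO) or with doxycycline (DOX), with 3 libraries in each of the 4 groups and 12 in all. All groups carried the hairpin, and DOX itself and MUC1 silencing cannot be told apart in these 4 groups. The study describes the replicates as biologically independent, and the labels give no culture for each.

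Coverage is given as CPM per bin, the mean bin value of a region after the summed bin values of its library were scaled to 1000000. An average bin had 1.41 CPM in the DU-145 table and 2.11 CPM in the BT-549 table. The summed bin values were 12370094 to 25232000 in the DU-145 libraries, 9142900 to 13606129 in BT-549 vehicle and only 2502510 to 3267024 in BT-549 DOX, so that the BT-549 DOX values are the least precise. The MUC1 promoter region, which a hairpin against the mRNA need not alter and which does not check the silencing, had log2 changes of -0.17 ± 0.08 in DU-145 (SE; adjusted p = 0.053, edgeR, and -0.36 and 2.1e-04 with TMM factors, which scale by a trimmed mean of ratios between libraries) and 0.02 ± 0.10 in BT-549 cells (adjusted p = 0.91). Promoter regions were present for 6 of 6 epithelial and 4 of 6 mesenchymal markers in DU-145, and for 2 of 6 and 6 of 6 in BT-549. Of the prostate luminal markers, TMPRSS2 had a promoter region in the DU-145 table and KLK3 and FOLH1 had none. TMPRSS2, KLK3 and FOLH1 had none in BT-549. Of the breast luminal markers, DU-145 had 4 of 4 and BT-549 had 2 of 4, with ESR1 and PGR absent, so that list was fuller in the prostate line. Leukocyte and endothelial markers had 1 of 4 each in both lines (CD14 and KDR), with PTPRC and PECAM1 absent.

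6 stretches of the genome and 3 promoter elements carry most of what follows and are given here from GRCh38, plus strand. Each stretch is the 300 bases around the highest bin of a region that changed with DOX in DU-145 cells, outside the exons of protein-coding genes. The capitals mark the AP-1 element, TGACTCA or its reverse complement TGAGTCA, and a stretch without capitals holds neither.
PLAU, 11.1 kb upstream, chr10:73899401-73899700: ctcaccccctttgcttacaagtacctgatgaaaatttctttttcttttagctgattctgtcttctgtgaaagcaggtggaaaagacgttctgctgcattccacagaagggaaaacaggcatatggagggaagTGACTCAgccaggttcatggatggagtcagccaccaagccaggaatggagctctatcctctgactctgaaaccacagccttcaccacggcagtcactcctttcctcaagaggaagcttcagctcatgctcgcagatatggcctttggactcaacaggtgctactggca
PLAU, 16.1 kb upstream, chr10:73894601-73894900: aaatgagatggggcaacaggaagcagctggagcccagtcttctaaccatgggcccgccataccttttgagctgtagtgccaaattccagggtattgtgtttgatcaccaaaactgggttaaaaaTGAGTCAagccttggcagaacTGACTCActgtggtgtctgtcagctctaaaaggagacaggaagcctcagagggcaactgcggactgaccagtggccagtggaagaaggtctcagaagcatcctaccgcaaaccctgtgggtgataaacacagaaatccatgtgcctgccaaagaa
MMP14, past the 3′ end, chr14:22851301-22851600: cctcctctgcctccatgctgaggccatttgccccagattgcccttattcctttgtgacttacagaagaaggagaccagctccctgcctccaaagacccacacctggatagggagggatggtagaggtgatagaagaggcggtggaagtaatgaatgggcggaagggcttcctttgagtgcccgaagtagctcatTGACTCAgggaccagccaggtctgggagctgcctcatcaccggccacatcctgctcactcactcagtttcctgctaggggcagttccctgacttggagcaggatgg
MMP3, 7.4 kb upstream, chr11:102851401-102851700: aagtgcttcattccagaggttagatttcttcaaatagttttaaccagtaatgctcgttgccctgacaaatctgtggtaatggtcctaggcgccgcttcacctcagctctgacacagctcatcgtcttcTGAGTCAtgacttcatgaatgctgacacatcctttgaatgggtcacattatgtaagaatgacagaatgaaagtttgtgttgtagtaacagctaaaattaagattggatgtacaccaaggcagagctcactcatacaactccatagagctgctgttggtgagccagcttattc
MMP10, past the 3′ end, chr11:102763501-102763800: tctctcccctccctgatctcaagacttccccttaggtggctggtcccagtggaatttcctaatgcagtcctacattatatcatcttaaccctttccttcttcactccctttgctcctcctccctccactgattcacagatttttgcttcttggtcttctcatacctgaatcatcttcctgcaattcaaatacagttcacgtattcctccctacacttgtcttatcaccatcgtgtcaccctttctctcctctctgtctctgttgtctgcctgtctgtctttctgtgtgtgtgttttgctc
MMP13, intron, chr11:102950801-102951100: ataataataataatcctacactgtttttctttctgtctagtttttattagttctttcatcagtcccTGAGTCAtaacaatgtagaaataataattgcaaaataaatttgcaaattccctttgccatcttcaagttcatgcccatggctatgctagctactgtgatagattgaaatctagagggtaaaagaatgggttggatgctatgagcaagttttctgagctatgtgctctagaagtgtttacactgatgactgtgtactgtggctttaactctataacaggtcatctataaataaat
MMP3 promoter element, 70 bases before the start site, chr11:102843663-102843689: acccgcagctTGACTCAtccttgcttt
MMP1 promoter element, 71 bases before the start site, chr11:102798215-102798241: agaggctgtcTGACTCAtgctttataa
PLAUR promoter element, 186 bases before the start site, chr19:43670339-43670365: ggctcggcccTGACTCAtggagttgtg
The MMP3, MMP1 and PLAUR elements are written as the plus strand reads, and these 3 genes are on the minus strand.

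In DU-145 cells, DOX was accompanied by higher coverage of 20 of the 42 regions, lower coverage of 2 and no call for 20 (edgeR quasi-likelihood test, adjusted p under 0.05 over all regions). Over all 79177 regions, 37.1% were higher and 17.4% lower. The largest rises lay past the 3′ ends of MMP10 and MMP14, at the MMP3 promoter and upstream of MMP3 and PLAU, and the larger of the falls lay within MMP13. At a fold of at least 2, 14 were higher and 1 was lower, against 23.6% and 5.49% of all regions. The split of calls moves with the scaling. With TMM factors, 15 of the 42 regions were higher and 4 lower, against 30% and 25.5% of all regions, and the share of all calls that were higher was 54.1% in place of 68.0%. The median log2 change of all regions was 0.24 with library sums and 0.05 with TMM factors, and the median of the 42 regions was 0.35 and 0.16. A change read against the median region is smaller by that amount.

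By the study's methods, a region entered a table with a peak in at least 3 libraries of the line, and one that entered through its DOX libraries alone was chosen for high DOX coverage. Of the 42 regions, 24 had a peak in all 3 libraries of both groups, and among them 8 were higher and 2 lower, against 27.3% and 22% of the 46152 such regions in the whole table. Another 12 had a peak in all 3 DOX libraries but not in all 3 vehicle libraries, and 11 of these were higher, beside 75.7% of the 21548 such regions in the whole table. Of the 29 regions with no protein-coding start site within 1 kb, 19 were higher and 1 lower (65.5% and 3.45%, beside 43.2% and 13.1% of all such regions). Of all regions with a start site within 1 kb, 11.9% were higher and 35.1% lower.

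**Figure D1:**
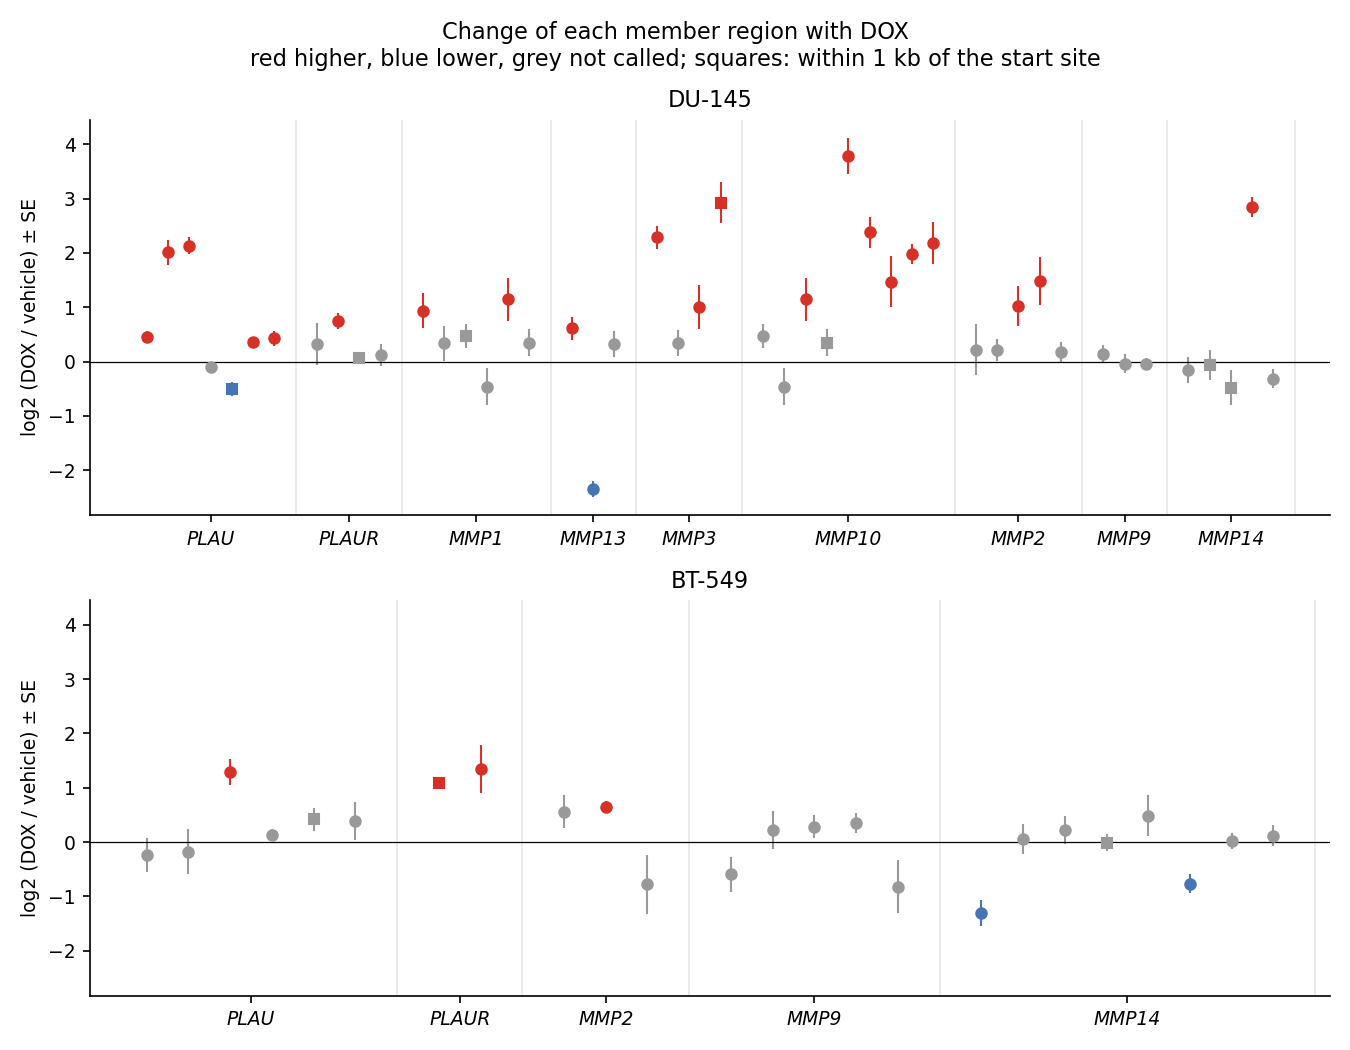
Log2 change with DOX (DOX over vehicle, point, with its SE as the bar) of each region in the windows of the members, in order of distance from the canonical start site of each gene. Regions called higher are red, regions called lower are blue and the rest are grey, with squares for regions within 1 kb of the start site, and a region in the windows of 2 genes is drawn under both. In DU-145 cells the highest point is an MMP10 region at 3.79 and the lowest the MMP13 region at -2.35.

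PLAU encodes urokinase, the protease that activates plasminogen. The gene is at chr10:73909177-73917496 on the plus strand, with its canonical start site at position 73911132. In DU-145 cells, 5 of its 7 regions were higher with DOX and 1 was lower. The region 11.1 kb upstream (chr10:73898901-73900000, intergenic, 1 AP-1 element) had 0.395, 0.429 and 0.601 CPM per bin in vehicle libraries 1 to 3 and 1.98, 2.35 and 1.81 in DOX libraries 1 to 3. The groups were far apart, and the log2 change was 2.13 ± 0.16 (adjusted p = 2.5e-13). The region 16.1 kb upstream (chr10:73894401-73895000, 2 AP-1 elements) went from 0.339, 0.252 and 0.252 to 0.978, 1.23 and 1.15, again without overlap, with a change of 2.01 ± 0.23 (adjusted p = 4.0e-09). It had a peak in 1 of 3 vehicle and 3 of 3 DOX libraries, and entry through DOX libraries favoured a rise in advance.

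The PLAU promoter region moved the other way, as did 35.1% of all DU-145 regions within 1 kb of a start site. Over the canonical start site (chr10:73910301-73912300, 5′ UTR, coding exons and introns), coverage was 0.995, 1.20 and 1.15 in vehicle and 0.657, 0.862 and 0.836 with DOX, a change of -0.50 ± 0.13 (adjusted p = 1.1e-03). The groups did not overlap, and the region was called lower under each of the 16 alternatives run. The region next to it (chr10:73906201-73910000) was the most open of the locus, at 3.11, 3.44 and 3.30 CPM per bin in vehicle and 2.93, 3.26 and 2.98 with DOX. Its change of -0.10 ± 0.07 was not called (adjusted p = 0.23) with library sums and was called lower, at -0.30, with TMM factors, and higher, at 0.22, with loess offsets (adjusted p = 0.011). It held a pair of summits, one 4.3 kb upstream of the canonical start site and one near the alternative first exon, 2.0 kb upstream. At the highest bin of the upstream summit, the DU-145 libraries had 15.2, 15.0 and 13.4 CPM in vehicle and 10.5, 11.2 and 9.87 with DOX, without overlap (exact permutation p = 0.1, two-sided, the smallest that 3 against 3 libraries allow). At the second summit they overlapped, with means of 6.90 and 7.95 CPM. The summits were chosen after their values were seen. The 3 other regions called higher had changes of 0.35 to 0.45, and the 2 of them past the start site, within the gene and 20.9 kb downstream, lost the call with TMM factors and without DOX library 2 (0.26 in both, adjusted p = 0.050 and 0.13). The third (0.45) is nearest to the start of CAMK2G, and 3 of its 34 bins lie in the PLAU window.

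In BT-549 cells, 4 of the 24 regions were higher with DOX (12.2% of all regions), 2 were lower (18% of all regions) and 18 were not called. At a fold of at least 2 the counts were 3 and 1, against 4.94% and 12%. With TMM factors the counts were also 4 and 2, against 15.9% and 14.8%, and the share of all calls that were higher was 51.7% in place of 40.4%, with the median of all regions at 0.00 in place of -0.10. The higher regions were the PLAUR promoter and upstream regions of PLAU and MMP2, with 1 small region at CADM4, and the lower ones were in the MMP14 window. Of the 13 regions with a peak in all 3 libraries of both groups, 3 were higher and none lower, against 23.2% and 11.6% of all such regions.

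The PLAU region 11.2 kb upstream was higher in BT-549 cells as well. Its coverage (chr10:73899001-73899900) was 0.710, 0.963 and 0.850 in vehicle and 1.85, 2.19 and 2.15 with DOX, with a log2 change of 1.29 ± 0.24 (adjusted p = 1.7e-04). The region 16.2 kb upstream was at 1.11, 1.01 and 0.974 in vehicle and 0.647, 1.20 and 0.906 with DOX, and these values overlapped (-0.18 ± 0.42, adjusted p = 0.79). The canonical promoter region (chr10:73910501-73911800) had 1.61, 1.59 and 1.02 in vehicle and 2.15, 1.84 and 1.69 with DOX, and its change of 0.42 ± 0.21 was not called (adjusted p = 0.14). The most open region (chr10:73906301-73909800) was not called either (0.13 ± 0.11, adjusted p = 0.41), but was with the trend of GC content removed (0.33, adjusted p = 0.043). Within it, the highest bin at the alternative first exon, 1.9 kb upstream, had 2.26, 2.48 and 1.69 CPM in vehicle and 5.20, 6.46 and 6.73 with DOX, without overlap (exact permutation p = 0.1), while the summit 4.3 kb upstream overlapped (means of 6.70 and 5.25). The sum over the region takes in both summits. These were chosen after their values were seen, and overlap of the groups does not show that a summit was unchanged.

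**Figure D2:**
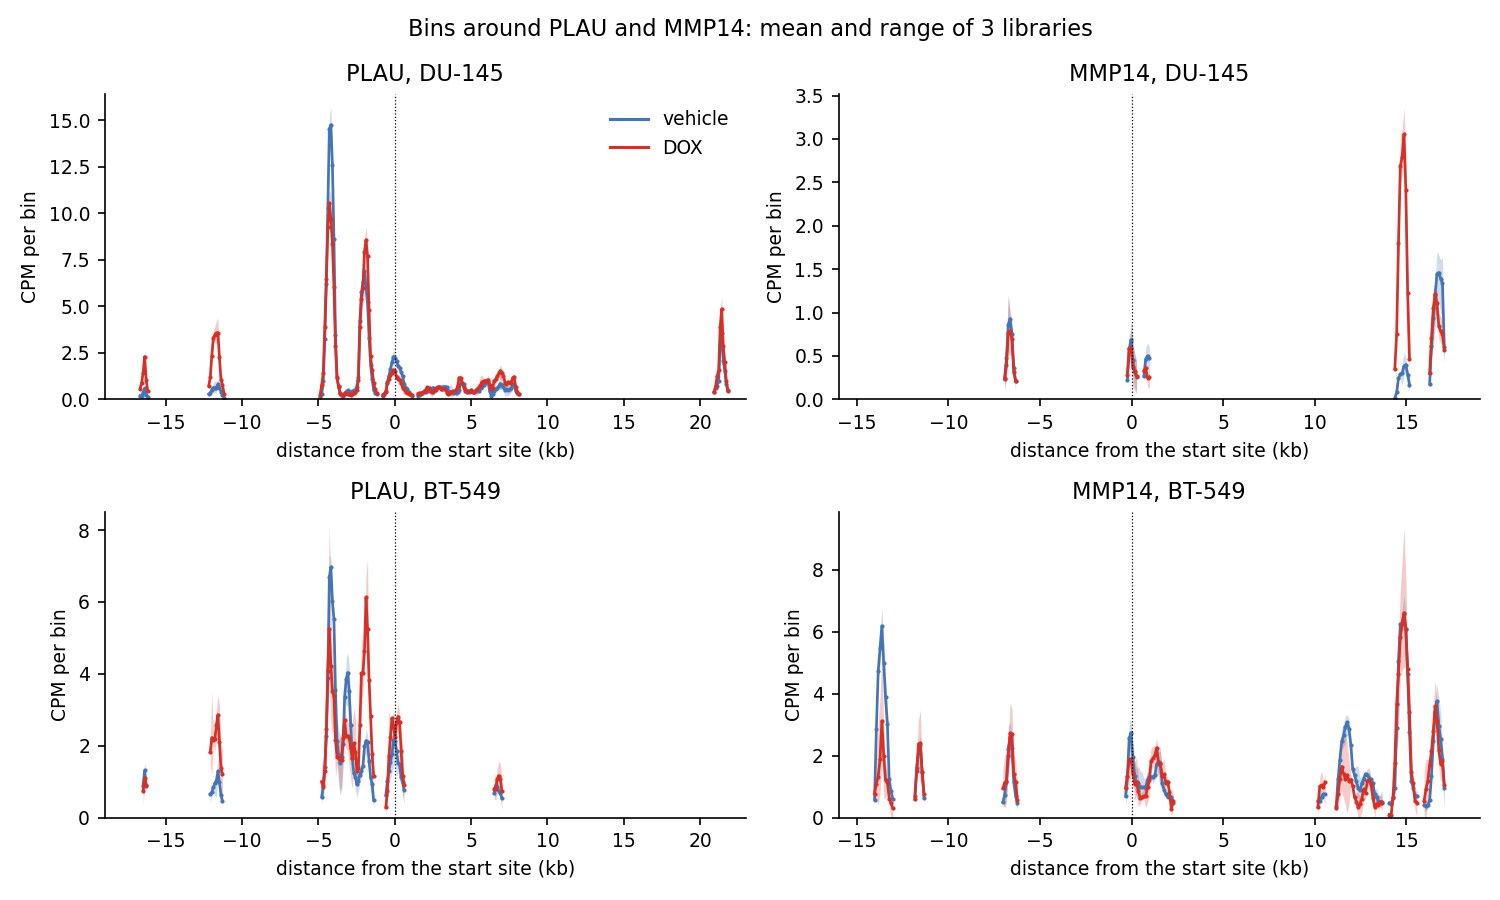
Coverage of the 100-bp bins (CPM) against distance from the canonical start site (kb) at PLAU and MMP14 in each line, with the mean of 3 libraries as the line and their range as the band. Stretches without a line are outside the tables. At PLAU the summit near 11 kb upstream is higher with DOX in both lines, and at MMP14 the summit near 15 kb is low in DU-145 vehicle and high in the other 3 groups.

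PLAUR encodes the urokinase receptor, a glycolipid-anchored surface protein. The gene is at chr19:43646095-43670547 on the minus strand. In BT-549 cells, its promoter region (chr19:43668201-43670800, 5′ UTR, coding exon and intron, 2 AP-1 elements) had 2.07, 2.27 and 1.89 CPM per bin in vehicle and 5.01, 4.11 and 4.18 with DOX. The lowest DOX library was above the highest vehicle library, and the log2 change was 1.09 ± 0.12 (adjusted p = 3.9e-08). In DU-145 cells, the promoter region (chr19:43668201-43671000) was at 2.77, 3.13 and 3.11 in vehicle and 3.16, 3.17 and 3.13 with DOX, a change of 0.07 ± 0.08 that was not called (adjusted p = 0.46) and that was negative with TMM factors (-0.12) and called higher with loess offsets (0.33, adjusted p = 5.5e-04).

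A second PLAUR region, 4.5 kb upstream in DU-145 cells (chr19:43674701-43675900, intergenic, 1 AP-1 element), went from 0.730, 0.675 and 0.640 to 1.22, 1.10 and 1.10 CPM per bin without overlap (0.74 ± 0.15, adjusted p = 6.5e-05). It had no counterpart in the BT-549 table. At the 3′ side of the PLAUR window, a region of 3 bins over CADM4 was higher in BT-549 cells (chr19:43639601-43639900, 1.35 ± 0.44, adjusted p = 0.020), at 0.502, 0.608 and 0.534 in vehicle and 2.06, 0.673 and 1.38 with DOX. That call rested on few fragments (1.68 to 5.30 per bin in the DOX libraries), and it was lost when any 1 of 5 libraries was left out, with changes of 0.99 without DOX 1, 1.33 without DOX 3 and 1.27, 1.42 and 1.35 without vehicle 1, 2 and 3. With the trend of GC content removed, its adjusted p was 0.069.

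MMP1, MMP3, MMP10 and MMP13 lie within 185.2 kb on chromosome 11, all on the minus strand, and their windows held 18 regions in the DU-145 table, 4 of them within 1 window and the next. None of the 18 had a counterpart in the BT-549 table. MMP1 and MMP13 are interstitial collagenases. MMP3 and MMP10 are stromelysins, which degrade many matrix components and activate other proenzymes.

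The MMP13 intron was the only one of the 18 regions called lower with DOX. The region 4.3 kb within the gene (chr11:102950301-102951400, 1 AP-1 element) had 1.93, 2.52 and 2.65 CPM per bin in vehicle and 0.50, 0.516 and 0.379 with DOX, and its log2 change was -2.35 ± 0.15 (adjusted p = 8.2e-15). It was the most open of the 18 regions in vehicle cells, and the 3 DOX libraries were far below the 3 vehicle libraries. The table had no region within 1 kb of the MMP13 start site, although vehicle library 1 and DOX libraries 2 and 3 had a peak there (fold enrichment 7.712, 6.112 and 4.307). Upstream of MMP13, a region 18.9 kb away with 3 AP-1 elements was called higher (0.62 ± 0.21, adjusted p = 0.013), but its groups overlapped and the call was lost with TMM factors, without vehicle 1 (0.42) and without DOX 2 (0.46), and the change was negative with the trend of GC content removed (-0.28).

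The MMP3 promoter region was nearly closed in vehicle cells and open with DOX. At chr11:102843401-102843900 (5′ UTR and coding exon, with the AP-1 element shown above), coverage was 0.0134, 0.114 and 0.135 in vehicle and 0.507, 0.812 and 0.751 with DOX. The change was 2.93 ± 0.38 (adjusted p = 3.8e-08), and a peak was present in 0 of 3 vehicle and 3 of 3 DOX libraries. The region thus entered through its DOX libraries alone, which favoured a rise in advance, and the peak counts add no separate evidence. The vehicle values stood for 0.186 to 2.74 fragments per bin, and the size of the fold is uncertain for that reason. The region 7.4 kb upstream (chr11:102851001-102851800, intergenic, 1 AP-1 element) had a peak in all 6 libraries and went from 0.283, 0.221 and 0.253 to 1.38, 1.03 and 1.23 (2.29 ± 0.21, adjusted p = 3.6e-11), with no overlap. Another region, 2.7 kb upstream, also entered through its DOX libraries alone and was called at 1.0 ± 0.41 (adjusted p = 0.037). The call was lost in 5 of 6 fits without 1 library (changes of 0.74 to 1.05, with vehicle 1 the exception). It was also lost with TMM factors and with loess offsets, where the change was negative (-0.063).

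MMP10 had a row of 5 regions past its 3′ end, between 16.6 and 22 kb from its start site, and each was called higher with DOX. The one with the largest change (chr11:102763201-102764000) went from 0.0178, 0.0667 and 0.0515 CPM per bin to 0.848, 0.574 and 0.665, a change of 3.79 ± 0.33 (adjusted p = 1.0e-11). Its vehicle libraries were at 0.246 to 1.60 fragments per bin and had no peak. The region 19.6 kb from the start site (chr11:102760201-102761000) had a peak in all 6 libraries, and there the values were 0.310, 0.388 and 0.414 in vehicle and 1.45, 1.43 and 1.49 with DOX (1.97 ± 0.19, adjusted p = 4.8e-11). The 3 others changed by 1.47 to 2.38, and the smallest of these (3 bins) lost its call without vehicle 2 (1.0, adjusted p = 0.097) and with the trend of GC content removed. These 3 also had a peak in 0 of 3 vehicle and 3 of 3 DOX libraries. Like the region with the largest change, they entered through their DOX libraries alone, which favoured a rise in advance. The 5 regions held no AP-1 element.

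The MMP10 and MMP1 promoters themselves were not called. Coverage over the MMP10 start site (chr11:102780501-102780900) was 0.789, 0.606 and 0.638 in vehicle and 0.984, 0.639 and 0.992 with DOX, and these values overlapped (0.35 ± 0.25, adjusted p = 0.24). Over the MMP1 start site (chr11:102797901-102798600), 0.505, 0.461 and 0.538 in vehicle stood beside 0.660, 0.598 and 0.819 with DOX, which did not overlap but missed the threshold (0.47 ± 0.22, adjusted p = 0.062). Without DOX library 2 the MMP1 promoter passed it (0.57, adjusted p = 0.046). With the trend of GC content removed, both changes were negative (-0.30 and -0.11). A region 12.7 kb upstream of MMP1 (chr11:102810901-102811300) was the MMP1 region with the smallest adjusted p (0.94 ± 0.32, adjusted p = 0.013), at 0.249, 0.307 and 0.207 in vehicle and 0.430, 0.559 and 0.499 with DOX. It had a peak in 1 of 3 vehicle and 3 of 3 DOX libraries, and entry through DOX libraries favoured a rise in advance. Its call was lost without DOX 2 (0.84, adjusted p = 0.059). One intronic MMP1 region (4 bins, 1 AP-1 element), also in the MMP10 window, was called at 1.15 ± 0.40, with overlapping groups, and lost the call without DOX 1 (0.97), vehicle 1 (0.91) or vehicle 2 (0.89).

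**Figure D3:**
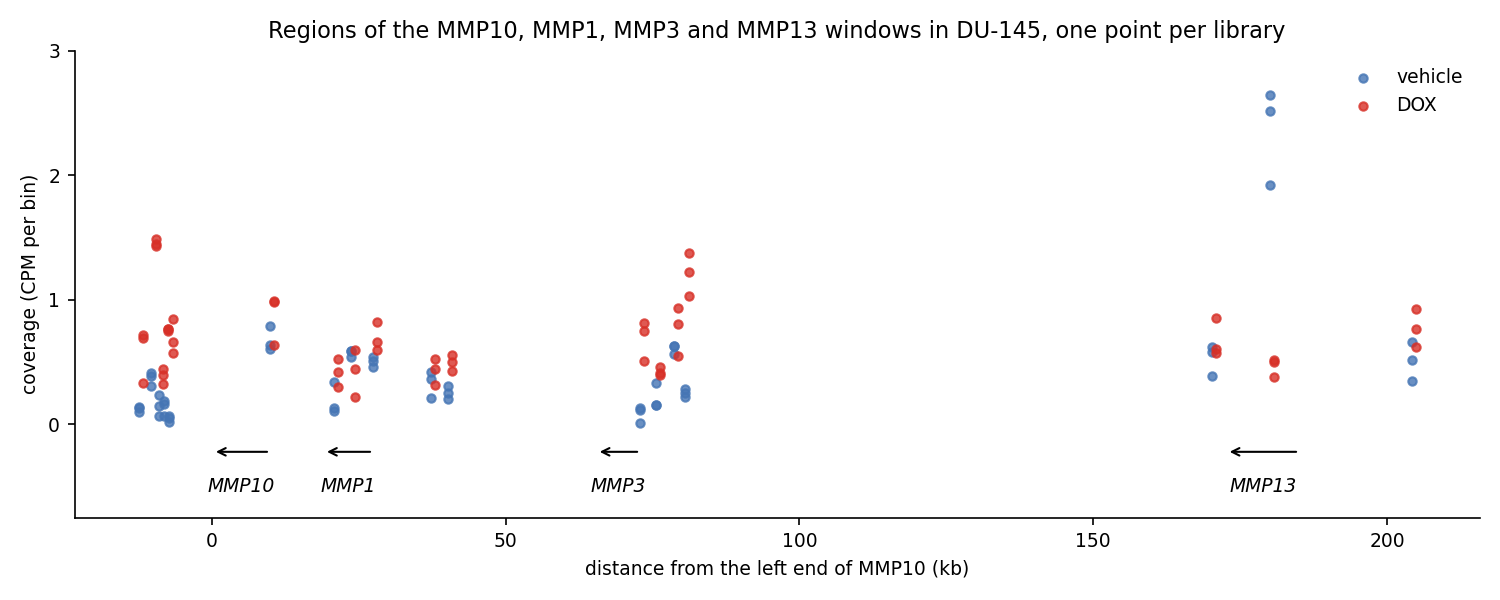
Coverage (CPM per bin) of the 18 regions in the windows of MMP10, MMP1, MMP3 and MMP13 in DU-145 cells, with 1 point for each library, against distance (kb) along chromosome 11. Arrows below the points show the genes and point in the direction of transcription. In the MMP13 intron the 3 vehicle points are at 1.93 to 2.65 above the DOX points, and in the 5 regions left of MMP10 the DOX points are above the vehicle points.

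MMP2 and MMP9 are the gelatinases, which cleave denatured collagen and basement membrane collagen. Neither had a region within 1 kb of its canonical start site in either table. The annotated MMP2 gene (chr16:55389700-55506691, plus strand) includes a distant first exon, and its regions within 13.6 kb upstream of the canonical start site are intronic in that model. A DU-145 region 89.3 kb upstream (chr16:55389601-55389900) overlaps a UTR exon at the start of that model. Its change of 0.22 ± 0.47 was not called (adjusted p = 0.72, edgeR). In BT-549 cells, the broad region 6.5 kb upstream of the canonical start (chr16:55469701-55472700, 2 AP-1 elements) went from 2.21, 1.98 and 1.98 CPM per bin to 3.11, 3.72 and 2.85 with no overlap (0.64 ± 0.12, adjusted p = 1.2e-04). The same stretch held 2 small regions in DU-145 cells. The one nearer the start site (chr16:55472301-55472700) had 0.0818, 0.0783 and 0.396 in vehicle and 0.709, 0.499 and 0.285 with DOX. It was called at 1.49 ± 0.44 (adjusted p = 4.3e-03) although the groups overlapped, and without vehicle library 2 the call was lost (1.01, adjusted p = 0.068). The other was called at 1.03 ± 0.37 (adjusted p = 0.019) and lost the call with TMM factors and without vehicle 1 (0.83), vehicle 2 (0.89) or DOX 2 (0.95). Both DU-145 regions had a peak in 1 of 3 vehicle and 3 of 3 DOX libraries, and entry through DOX libraries favoured a rise in advance.

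MMP9 was the gene with regions but no call. Its 3 DU-145 regions changed by -0.04 to 0.14 and its 5 BT-549 regions by -0.82 to 0.35 (log2). The DU-145 region with the smallest adjusted p, 14.8 kb upstream (chr20:45993401-45994100), had 1.19, 1.07 and 1.37 CPM per bin in vehicle and 1.21, 1.49 and 1.25 with DOX (0.14 ± 0.16, adjusted p = 0.50). In BT-549 the smallest was at the start of the neighbouring SLC12A5 (chr20:46021401-46023100), with 1.32, 1.3 and 1.29 in vehicle and 1.59, 1.42 and 1.96 with DOX (0.35 ± 0.18, adjusted p = 0.15).

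MMP14, the membrane-type metalloproteinase, is at chr14:22836560-22849041 on the plus strand. Past its 3′ end, 14.3 kb from the start site, the DU-145 region chr14:22850901-22851800 (intergenic, 1 AP-1 element) had 0.283, 0.218 and 0.222 CPM per bin in vehicle and 1.62, 1.78 and 1.78 with DOX. The change was 2.86 ± 0.18 (adjusted p = 6.0e-15), the smallest p among the regions called higher. A peak was present in 2 of 3 vehicle and 3 of 3 DOX libraries. Of all DU-145 regions with a peak in all 3 DOX but not all 3 vehicle libraries, 75.7% were higher. The promoter region (chr14:22836301-22836900) was not called, at 0.292, 0.605 and 0.356 in vehicle and 0.276, 0.531 and 0.413 with DOX (-0.06 ± 0.28, adjusted p = 0.87), and these values overlapped. The sign of that small change was positive without vehicle 2 (0.37) or DOX 1 (0.13).

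In BT-549 cells, the region past the 3′ end of MMP14 was open in both groups. At chr14:22850601-22852200, coverage was 2.84, 3.01 and 2.90 in vehicle and 2.60, 3.60 and 2.72 with DOX (0.02 ± 0.14, adjusted p = 0.93). The promoter region (chr14:22836201-22838900) was at 1.17, 1.25 and 1.36 and at 1.28, 1.40 and 1.07 (-0.01 ± 0.16, adjusted p = 0.97). A pair of regions in the window fell. The one at the 3′ end of the gene (chr14:22847701-22850300) went from 1.44, 1.38 and 1.53 to 0.764, 1.06 and 0.742 (-0.77 ± 0.18, adjusted p = 1.4e-03), and the other, nearest to the start of SLC7A7 (chr14:22822501-22823600), from 3.24, 3.34 and 2.83 to 0.640, 1.92 and 1.26 (-1.31 ± 0.23, adjusted p = 8.7e-05). Neither pair of groups overlapped. Both regions had a peak in 3 of 3 vehicle libraries, but in only 1 and 2 of 3 DOX libraries, in that order. Of all BT-549 regions with a peak in all 3 vehicle but not all 3 DOX libraries, 23.4% were lower and 2.4% higher. The DOX libraries had few fragments at the pair, at 1.97 to 2.64 and 1.65 to 4.79 per bin.

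TIMP3, a matrix-bound inhibitor of metalloproteinases (chr22:32801705-32863041), was the member with no region to test. No DU-145 library had a peak within its window, and in BT-549 cells 1 library had a single peak that the table does not include.

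The promoter regions at the canonical start sites differed in openness among the members. In DU-145 they also differed in length, from 400 bases at MMP10 to 2800 at PLAUR. In DU-145 vehicle cells the order was PLAUR (3.0 CPM per bin), PLAU (1.11), MMP10 (0.678), MMP1 (0.501), MMP14 (0.418) and MMP3 (0.0876), and of these neighbours only MMP1 and MMP14 overlapped between libraries. With DOX, PLAUR stayed first at 3.15, and the others ran from MMP10 at 0.872 through PLAU at 0.785, MMP1 at 0.692 and MMP3 at 0.690 to MMP14 at 0.407, each overlapping the next. In BT-549 cells the order was PLAUR, PLAU and MMP14 in both groups, at 2.08, 1.41 and 1.26 in vehicle and 4.43, 1.89 and 1.25 with DOX. PLAU and MMP14 overlapped in vehicle and not with DOX.

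**Figure D4:**
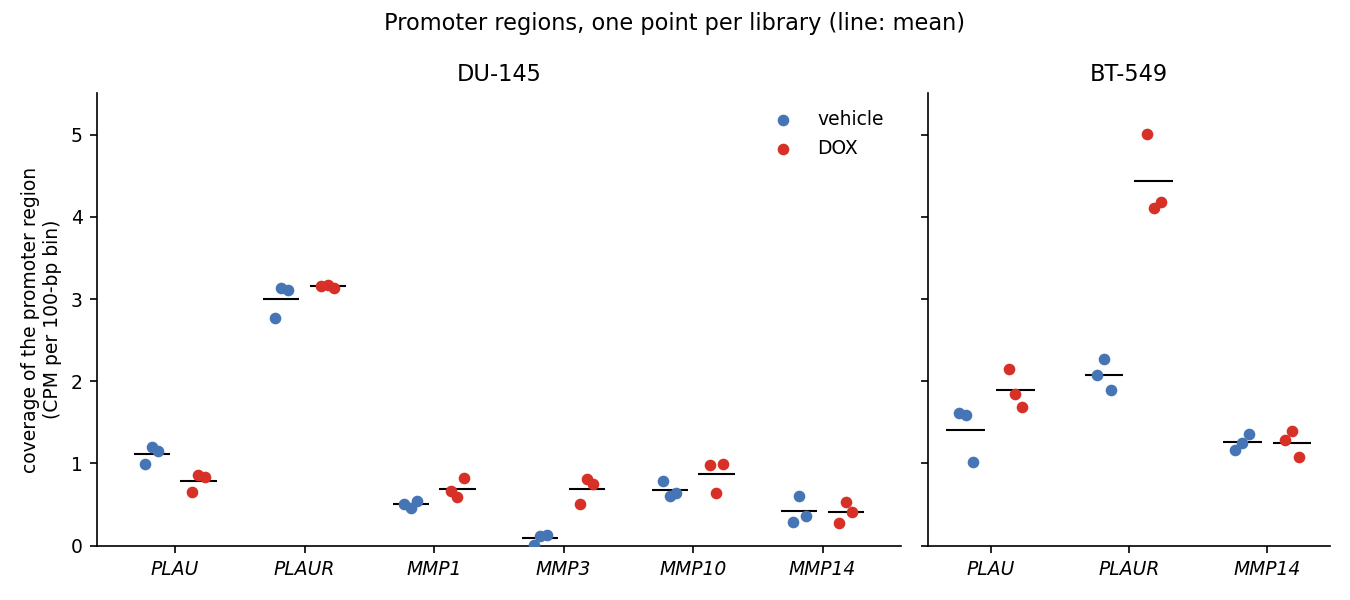
Coverage (CPM per bin) of the region at the canonical start site of each gene in each library of DU-145 (left) and BT-549 (right), with the mean as a line. The DU-145 points of MMP3 rise from a mean of 0.0876 to 0.690, those of PLAU fall from 1.11 to 0.785, and the BT-549 points of PLAUR rise from 2.08 to 4.43.

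The lines were compared without DOX over the 32671 stretches of bins that both tables hold, scaled by the sum over shared bins, where an average bin had 3.11 CPM. Of the 19 such regions in the windows, 11 were higher in BT-549 vehicle than in DU-145 vehicle (48.1% of all regions), 3 were lower (27.0% of all regions) and 5 were not called. At a fold of at least 2, 8 were higher and 0 lower, against 27.6% and 10.5%. With TMM factors 10 were higher and 4 lower, against 37.1% and 35.6%, and the share of all calls that were higher was 51.0% in place of 64.1%, with the median of all regions at 0.06 in place of 0.33. Copy number of a locus and its accessibility cannot be told apart between lines.

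The 11 higher regions were 5 at MMP14, 3 upstream of PLAU, 2 at MMP2 and 1 at MMP9. The 5 shared MMP14 regions were all higher in BT-549 cells. The region past the 3′ end had 0.377, 0.293 and 0.30 CPM per bin in DU-145 vehicle and 5.61, 5.75 and 5.58 in BT-549 vehicle, a log2 difference of 4.14 ± 0.17 (adjusted p = 2.6e-21). At the MMP14 promoter (chr14:22836301-22836900) the values were 0.390, 0.815 and 0.480 beside 1.96, 2.01 and 2.79 (1.93 ± 0.23, adjusted p = 5.2e-09). The 2 MMP2 regions upstream of the canonical start differed by 3.08 ± 0.28 (chr16:55471601-55472000, adjusted p = 8.2e-12) and 2.33 ± 0.37 (chr16:55472301-55472700, adjusted p = 1.2e-06). The PLAUR promoter was lower in BT-549 cells, at 2.53, 2.77 and 2.32 beside 3.96, 4.51 and 4.51 in DU-145 (-0.77 ± 0.09, adjusted p = 2.2e-09), and so was the broad PLAU region upstream of the start site (-0.69 ± 0.08, adjusted p = 8.8e-10). The PLAU promoter was not called with library sums (-0.24 ± 0.15, adjusted p = 0.15) and was called lower with TMM factors (-0.52). At MMP9, an exonic region within the gene (chr20:46013801-46014700) was higher in BT-549 cells (0.92 ± 0.17, adjusted p = 1.4e-05) and the SLC12A5 region lower (-0.50 ± 0.13, adjusted p = 7.7e-04). The difference at the PLAU region 11.2 kb upstream (0.52, adjusted p = 0.028) was lost with TMM factors, was negative with the trend of GC content removed (-0.095) and was lost without BT-549 vehicle 2 (0.41), BT-549 vehicle 3 (0.51), DU-145 vehicle 1 (0.38) or DU-145 vehicle 2 (0.45).

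The DOX change itself was then compared between lines, as the interaction of line and DOX over all 12 libraries. Of the 19 shared regions, 2 had a more positive change in BT-549 than in DU-145 cells (11.3% of all shared regions) and 5 a more negative one (27.3%). Of these, 0 and 4 differed by a fold of at least 2, against 2.33% and 21.1%. With TMM factors the counts were 2 and 4, against 19.2% and 21.1%, and the share of all calls that were more positive was 47.7% in place of 29.3%, with the median of all regions at -0.03 in place of -0.24. At the MMP14 region past the 3′ end, the log2 ratio of group means was 2.97 in DU-145 and -0.00 in BT-549 cells, and the difference was -2.98 ± 0.23 (adjusted p = 4.6e-13). At the PLAUR promoter it was 0.18 in DU-145 and 1.04 in BT-549, a difference of 0.85 ± 0.13 (adjusted p = 1.8e-06). The PLAU promoter differed by 0.78 ± 0.25 (adjusted p = 0.011), at -0.43 in DU-145 and 0.38 in BT-549 cells. The 3 upstream PLAU regions differed the other way. Their differences were -1.05 ± 0.28 at 11.2 kb, -2.36 ± 0.45 at 16.2 kb and -1.41 ± 0.37 at 21.9 kb (adjusted p = 3.0e-03, 5.4e-05 and 2.5e-03), with ratios of 2.27, 2.12 and 1.09 in DU-145 and 1.24, -0.23 and -0.30 in BT-549. The last of these is nearest to CAMK2G. At 16.2 kb, DU-145 cells had a peak in 1 vehicle and 3 DOX libraries. BT-549 cells had one there in 3 vehicle and 0 DOX libraries, with 1.67 to 3.0 fragments per bin in the DOX libraries. Entry through DOX libraries in DU-145 and vehicle libraries in BT-549 favoured a negative difference at that region in advance. At 21.9 kb the BT-549 counts were also 3 and 0, beside 3 and 3 in DU-145. The PLAU differences at 11.2 and 21.9 kb lost the call with loess offsets (-0.64 and -0.79), the first also with the trend of GC content removed (-0.38), and the promoter difference lost it when the highest bin replaced the sum (0.53, adjusted p = 0.35). The seventh, at MMP9, was -0.89 ± 0.34 (adjusted p = 0.035) and lost the call with TMM factors (-0.68) and without any 1 of DU-145 vehicle 1 or 2, DU-145 DOX 2, BT-549 vehicle 1 or 2 and BT-549 DOX 2 or 3 (-0.89 to -0.71).

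**Figure D5:**
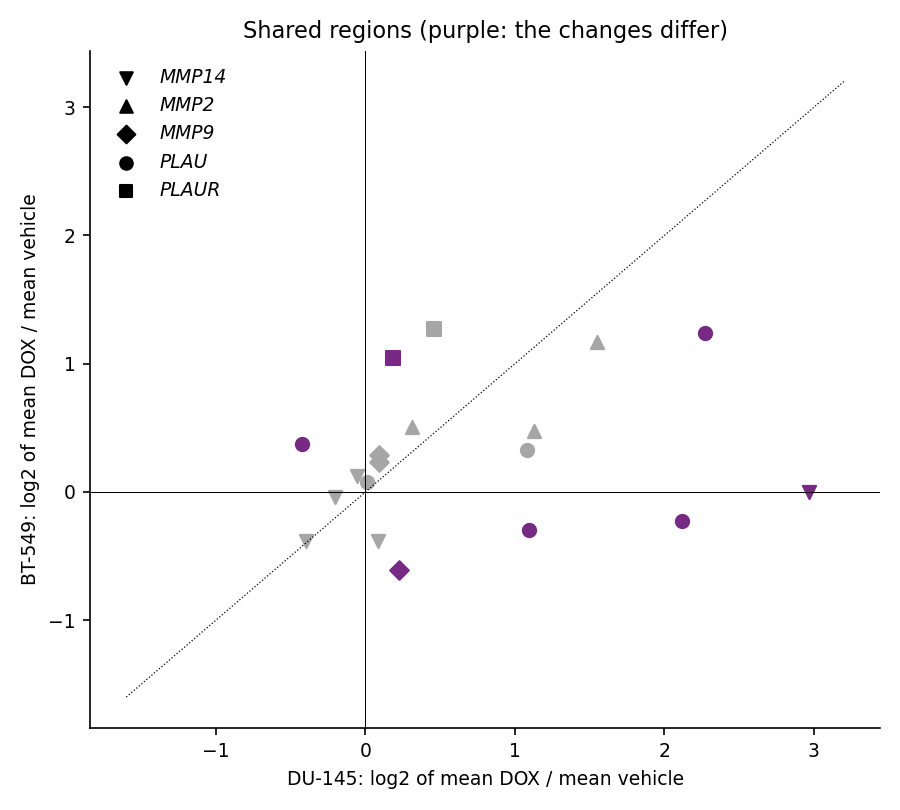
Log2 of the mean DOX over the mean vehicle coverage of each region held by both tables in DU-145 (horizontal) and BT-549 cells (vertical), with 1 symbol for each gene. Regions whose change differed between lines are purple, and the dotted line marks equal change. The MMP14 region past the 3′ end lies at 2.97 on the horizontal axis and at 0 on the vertical, and the PLAUR promoter above the dotted line.

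A region of a member in 1 table only was about as frequent as for all regions. Of the 42 DU-145 regions, 23 (54.8%) overlapped no BT-549 region, beside 60.0% of all DU-145 regions, and of the 24 BT-549 regions, 7 (29.2%) overlapped no DU-145 region, beside 30.7%. In DU-145 cells, a peak was present in all 3 libraries at 26 of the 42 regions in vehicle (61.9%, beside 65.5% of all regions) and at 36 with DOX (85.7%, beside 85.5%). In BT-549 cells it was 23 of the 24 in vehicle (95.8%, beside 96.2%) and 13 with DOX (54.2%, beside 38.8%). Of the 10 with a peak in all 3 vehicle libraries only, 8 were not called by coverage, beside 19892 of all 26815 such regions. The BT-549 DOX libraries had 30450 to 39837 peaks in all, against 65204 to 93929 in vehicle, and the part of depth in that fall was not tested.

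The letters TGACTCA or TGAGTCA were sought on either strand within the bounds of each region. In DU-145 cells, 13 of the 20 regions called higher held them (65.0%), beside 53.1% of all regions called higher, and 7 of the 20 not called did (35%), beside 30.4%. Over all 42 regions it was 21 (50%), beside 38.5% of all DU-145 regions, and in BT-549 cells 9 of 24 (37.5%), beside 27.1%. Regions differ in length, and within the 300 bases around the highest bin the shares were 38.1% of the 42 regions beside 30% of all regions in DU-145, and 20.8% of the 24 beside 17.2% in BT-549 cells. Of all regions called lower, 28.5% held an element in DU-145 and 40.7% in BT-549 cells, the latter beside 30.1% of those called higher. Elements stood in members of either direction, as in the MMP13 intron that was lower and the MMP14 region that was higher, and the 5 MMP10 regions past the 3′ end had none. A match describes the letters alone.

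The other genes of the pathway were 30 further metalloproteinases, inhibitors, plasminogen activators, serpins and receptors, taken with the same windows. In DU-145 cells 52 of their 151 regions were higher (34.4%) and 18 lower (11.9%), beside 37.1% and 17.4% of all regions. With TMM factors 36 were higher and 39 lower, beside 30% and 25.5% of all regions. In BT-549 cells 7 of 102 regions were higher (6.86%) and 15 lower (14.7%), beside 12.2% and 18% of all regions. With TMM factors 12 were higher and 10 lower, beside 15.9% and 14.8% of all regions. In each line 13 of the 30 genes had a promoter region, of which 3 were higher and 0 lower in DU-145 and 2 were higher and 2 lower in BT-549 cells. Of all regions with a start site within 1 kb, 11.9% were higher and 35.1% lower in DU-145, and 17.2% and 7.73% in BT-549 cells. The called promoters, named after their values were seen, were MMP15 (0.24), MMP25 (0.61) and MMP28 (0.68) in DU-145, and BSG (0.79), LRP1 (0.53), MMP16 (-0.36) and TIMP1 in BT-549 cells, with the calls of MMP15, MMP25 and MMP16 lost with TMM factors. With those factors the split in DU-145 turned to 1 higher (MMP28) and 6 lower (SERPINE2, PLGRKT, RECK, LRP1, FURIN and TIMP1, from -0.50 to -0.24), and in BT-549 it was 3 higher and 1 lower. Over all 15565 DU-145 regions with a start site within 1 kb, TMM factors gave 1048 higher and 8615 lower. Over the 14353 such BT-549 regions they gave 3525 higher and 691 lower. TIMP1, an inhibitor of most metalloproteinases, was the single called promoter past a 2-fold change. In BT-549 cells its promoter region fell from a mean of 2.30 to 0.896 CPM per bin (-1.37 ± 0.27, adjusted p = 3.4e-04), and in DU-145 cells it was at 1.24 and 1.0 (-0.31 ± 0.16, adjusted p = 0.11, and -0.50 and 9.1e-03 with TMM factors).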

How the data were processed

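The deposited files were a table of bin values for each line and peak lists for each of the 12 ATAC-seq libraries, made from 50000 cells each. The authors aligned reads by bwa-mem, took out duplicates by Picard and used MACS2 2.2.7.1 to call peaks at a q-value of 0.05. They then merged peaks found in at least 3 libraries of a line, split them into 100-bp bins and averaged fragment coverage over each bin. The authors deposited these averages, which are handled here like estimated counts, since few are whole (4.22% and 6.86%), and sums over a region were rounded. A fragment spans several bins and is counted more than once. The deposited peak lists give each peak a fold enrichment as a ratio and a −log10 q-value.

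Members and gene lists were chosen with earlier results of these data known. Gene windows came from GENCODE v44 on GRCh38. Regions were tested in edgeR 4.0.16 (R 4.3.3; robust quasi-likelihood, library sums as offsets, Benjamini-Hochberg adjustment over all regions), with SE as the log2 change over the square root of F. TMM and DESeq2 1.42.0 scaling, GC and loess corrections, limma-trend (limma 3.58.1), the highest bin and leaving out each library were alternatives. The steps were tested on simulated data. They called 36% of simulated 2-fold changes in each line, 37% between lines and 6% for the difference of the DOX change. For 4-fold changes these were 100%, 100% and 85%. A region that was not called is thus not shown to be unchanged. By rule, each member's promoter region (within 1 kb of its start site) and its region with the smallest adjusted p in each line were given in full, and other pathway genes were named where the promoter was called at a fold of at least 2. Further called regions were described after their values were seen. One marker gene is not reported here.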

Additional observations from a re-analysis of the deposited data

Results flagged for a closer look

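The DOX change differed between DU-145 and BT-549 cells, by the interaction test in edgeR, at 7 of the 19 shared regions (36.8%, beside 38.6% of all shared regions), and each difference is BT-549 minus DU-145 on the log2 scale. At PLAU these were -1.41 at 21.9 kb upstream, -2.36 at 16.2 kb and -1.05 at 11.2 kb, with the promoter at 0.78. At the MMP14 region past the 3′ end the difference was -2.98, at the PLAUR promoter 0.85 and at the upstream MMP9 region -0.89, which lost its call in 15 of 23 alternatives.

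TIMP3 had no region in either table, but 1 peak was listed near its start site in BT-549 DOX library 1 (chr22:32801006-32801228, fold enrichment 3.356, q = 0.0325). The other 11 libraries had none in the TIMP3 window, and the peak was not kept at a q-value under 0.01.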

How the results depend on the processing

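Of the region calls, 10 of 20 higher and 2 of 2 lower in DU-145, 3 of 4 and 2 of 2 in BT-549, 8 of 11 and 3 of 3 between lines, and 1 of 2 positive and 2 of 5 negative differences of the DOX change were called under every alternative run. With DESeq2, 10 of the 42 DU-145 regions were higher, with its size factors in edgeR 13, and with the GC trend removed 11. Over all 79177 regions these settings gave 20605, 22494 and 19544 higher, in place of 29363. The lower count of the 42 was 4 with DESeq2, 5 with its size factors and 4 with TMM factors. It was 6 with loess offsets and 1 at a fold of at least 2. Over all regions these lower counts were 20579, 21959, 20167, 19285 and 4343, in that order, in place of 13805. At that fold the lower count was 1 in BT-549 and 0 between lines, and the positive differences 0; loess offsets gave 5 lower between lines and 2 negative differences. The positive differences were 4 with DESeq2 and with its size factors and 1 with the highest bin. The negative ones were 3 with the GC trend removed. Over all 32671 shared regions these settings gave 7581, 7350 and 3442 positive and 4970 negative. The cause was not tested. Leaving out 1 library gave 15 to 19 higher and 2 to 3 lower in DU-145, 3 to 4 and 2 to 3 in BT-549, 10 to 11 and 3 between lines, and 2 positive and 4 to 7 negative differences.

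The log2 change had both signs over the alternatives at 19 of the 42 DU-145 regions (2 of them called), 7 of the 24 BT-549 regions, 5 of the 19 between lines (1 called) and 8 of the 19 differences of the DOX change, and those called are named with their values in the report. Among each gene's promoter and region of smallest adjusted p, these in DU-145 were the MMP10, MMP1, MMP14 and PLAUR promoters and upstream MMP9 region. The MMP10 promoter was at -0.30 with GC and -0.071 with loess, and the MMP1 promoter at -0.11 with GC. The MMP14 promoter was at -0.50 with loess. When 1 library was left out it ran from -0.31 without DOX 2 to 0.37 without vehicle 2, with 0.13 without DOX 1. The PLAUR promoter was at -0.18 with DESeq2 and its size factors, -0.12 with TMM and -0.072 with the highest bin. The upstream MMP9 region was at -0.11 with DESeq2 and its size factors, -0.015 with GC and -0.054 with TMM. It was at -0.21 with the highest bin and -0.12 with loess. Of the same kind in BT-549 it was the MMP14 promoter (0.10 with DESeq2 and its size factors, 0.095 with TMM, and from -0.10 to 0.10 when 1 library was left out, positive without DOX 3 or vehicle 3). Among differences of the DOX change these were the MMP14 promoter (0.17 with loess) and the MMP2 region 7.2 kb upstream (0.15 with GC, 0.013 with loess).

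With the replicate number as a block, the counts were 19 higher and 2 lower in DU-145, 3 and 2 in BT-549, 11 and 3 between lines, and 2 positive and 5 negative differences. Same-numbered libraries correlated at -0.035 to 0.069, so the block does not stand for a pairing. The shallow BT-549 DOX libraries limit the precision there, with as few as 0.32 fragments per bin in a member region.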

Other observations

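The BT-549 table holds no region of the chromosome 11 cluster, yet single libraries had peaks in these windows. At MMP1 and MMP10, 2 of 3 vehicle and 0 of 3 DOX libraries had a peak, at MMP13 2 of 3 and 1 of 3, and at MMP3 1 of 3 and 1 of 3. The MMP3 peak in DOX library 2 lay 7.9 kb upstream of the start site with a fold enrichment of 6.595 (q = 9.74e-08), and the one in vehicle library 2 lay 7.8 kb upstream with 3.769 (q = 0.00121). Both overlap the stretch of the DU-145 region that opened 7.4 kb upstream of MMP3. The depth of the BT-549 DOX libraries moves with these counts, and its part was not tested.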
